A study of Drosophila melanogaster with 4 samples.

Results

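The genes described here are 10 regulators of the mitotic cell cycle, chosen by name: the mitotic cyclins *CycA*, *CycB* and *CycB3*, the G1 and S phase cyclins *CycD* and *CycE*, the kinases *Cdk1* and *Cdk2*, the Cdc25 phosphatase *string* (*stg*), the Cdk inhibitor *dacapo* (*dap*) and the anaphase activator *fizzy* (*fzy*). The choice was made with earlier results of these data known. All 10 were found among the 17023 genes counted, and all 10 passed the filter on low counts that left 9115 genes for testing. They were measured by RNA-seq of poly(A)-selected RNA from whole *Drosophila* ovaries, dissected 1 to 3 days after eclosion from flies fattened on yeast. There were 2 libraries of UAS-Dicer2;NosGAL4 > bam RNAi; aramis RNAi and 2 of UAS-Dicer2;NosGAL4 > bam RNAi. By these labels both genotypes shared the *nanos* driver, which acts in germ cells, the extra Dicer-2 and RNAi against *bag of marbles* (*bam*). They differed by the RNAi construct against *aramis*, a gene for a DEAD-box RNA helicase. The titles of the *bam* RNAi libraries read Bam (ii), and what (ii) stands for was not known here. The somatic cells of the ovary are not targeted by this driver and were part of every library. Ovaries with intact *bam* were not analysed here, and the labels do not say whether libraries of a genotype came from separate flies or dissections, so that p-values measure only the spread between these libraries, which may be technical.

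Progress through the cell cycle is driven by cyclin-dependent kinases, whose activity depends on a cyclin partner. Cyclin D with Cdk4 acts in G1, Cyclin E with Cdk2 starts S phase, and Cyclins A, B and B3 with Cdk1 drive mitosis until the anaphase-promoting complex (APC/C), activated by Fizzy, marks them for destruction. Loss of *bam* stops the differentiation of germline stem cell daughters, and the ovary fills with undifferentiated, dividing germ cells. In the female germline Cyclin E and Cyclin B are known to be needed to keep stem cells, and Bam is known to act on Cyclin A protein. Messenger RNA level, as measured here, does not give the level or activity of these proteins.

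Total counts lay between 11882367 and 13348602 per library, so that a floor of 3 counts was at most 0.252 CPM (counts scaled to the library total), which covers counting error only. The targeted gene *aramis*, listed under its current symbol *ais*, had 149 and 161 counts with *aramis* RNAi, against 454 and 507 counts in *bam* RNAi (log2 fold change -1.37, standard error, SE, 0.113, edgeR quasi-likelihood test, adjusted p = 3.3e-04). Scaled on germline markers, *ais* was at 0.079 (adjusted p = 0.573) and was not called, so that by value it fell no more than their geometric mean. Markers of the cell types of the ovary differed as well. Of all genes tested, 25.0% were called lower and 25.4% higher at an adjusted p under 0.05, the background for the marker counts here. The 14 listed germline markers were *nos*, *aub*, *AGO3*, *zpg*, *otu*, *rhi*, *cuff*, *del*, *krimp*, *spn-E*, *tej*, *qin*, *tud* and *mael*. Most are piRNA pathway genes, so that a change of that pathway and of germ cell content cannot be told apart by this list. Of these markers, 13 were lower and 1 (*tud*) was higher in *bam* RNAi; *aramis* RNAi, with a median log2 fold change of -1.49. None of the 14 was at 0 in any library. Their summed level was 748 and 625 TPM (counts divided by exon length and scaled to the same sum in each library) with *aramis* RNAi, against 1571 and 1560 TPM in *bam* RNAi. Of 15 somatic markers 7 were higher, 2 were lower and 6 did not pass the test, with a median of 0.48 and a summed level of 1379 and 1198 TPM with *aramis* RNAi, against 1093 and 974.5 TPM in *bam* RNAi. Muscle sheath markers (5 of 5 higher, median 1.01), hemocyte markers (3 of 4, median 1.4) and fat body markers (2 of 3, median 2.08) were higher, and 5 of 5 markers of growing egg chambers were lower (median -4.27). The summed level of these egg chamber markers was 2288 and 279 TPM with *aramis* RNAi, against 15016 and 52672 TPM in *bam* RNAi, the highest value being that of *bam* RNAi replicate 2. The part of these cell types in the results below was not tested. In RNA from whole ovaries, fewer germ cells and less of an mRNA per germ cell cannot be told apart. Neither can be told from a change in the share of growing egg chambers or of other cells, whose markers differed. Since egg chamber markers were present in *bam* RNAi, levels there are not those of undifferentiated germ cells alone.

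In *bam* RNAi; *aramis* RNAi ovaries 8 of the 10 cell cycle genes were lower than in *bam* RNAi ovaries, and 2, *stg* and *dap*, did not pass the test, a direction that turned round when the libraries were scaled on germline markers (below). The largest fall was that of *CycE*, to a level 2.52-fold lower. *fzy*, *Cdk2*, *CycB*, *CycA* and *Cdk1* fell between 1.82- and 2.05-fold, and *CycB3* and *CycD* fell less, 1.48- and 1.28-fold. A gene was called where the Benjamini-Hochberg adjusted p of edgeR's quasi-likelihood test, taken over all genes tested, was under 0.05. By this rule 25.0% of the 9115 genes were called lower, 25.4% higher and 50.4% in either direction, which is the background for the 8 of 10. Adding a change of over 4-fold left 3.36% of all genes (2.47% lower) and none of the 10. In CPM all 10 genes were lower in both libraries with *aramis* RNAi than in either without it, as were 52.3% of all genes, and 79.7% did not overlap in either direction. The median log2 fold change was -0.87 for the 10 genes and -0.02 for all genes tested. With DESeq2 in place of edgeR, 7 of the 10 were lower, against 17.3% of all genes. The number also depended on single libraries: 6 genes were called lower without *bam* RNAi replicate 1, and 7 without *bam* RNAi replicate 2 or without *aramis* RNAi replicate 1. The genes lost were *CycD* in each case and *CycB3* in the first. Without either one of the *bam* RNAi libraries, the calls that stayed were only just under the threshold. The count over all genes, 2278 lower, dropped to 631 and 558 without *bam* RNAi replicate 1 and 2.

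These directions hold relative to the whole of the RNA, as set by TMM normalization, which takes most genes as unchanged between libraries. With library sizes set so that the germline markers had the same geometric mean, the median of all genes tested shifted by 1.45 on the log2 scale, 8073 genes were called higher and 139 lower (88.6% and 1.52%, 90.1% together), and the direction of all 10 genes turned to positive values. Under that scaling 9 of the 10 genes were called higher, from 0.41 for *fzy* to 1.37 for *stg*, and *CycE* was at 0.12 (adjusted p = 0.332). Thus, by their values, all 10 genes fell less than the geometric mean of the germline markers, *CycE* by the smallest margin. The markers did not move together. Under TMM normalization their log2 fold changes ran from -2.59 (*rhi*) to 0.47 (*tud*). Scaled on their own mean, 4 of the 14 were called higher and 6 lower. This scaling therefore rests on a list of mixed changes, made up mostly of piRNA pathway genes. The p-values under that scaling take the markers as fixed. Falls and rises are given below relative to TMM normalization.

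**Figure D1:**
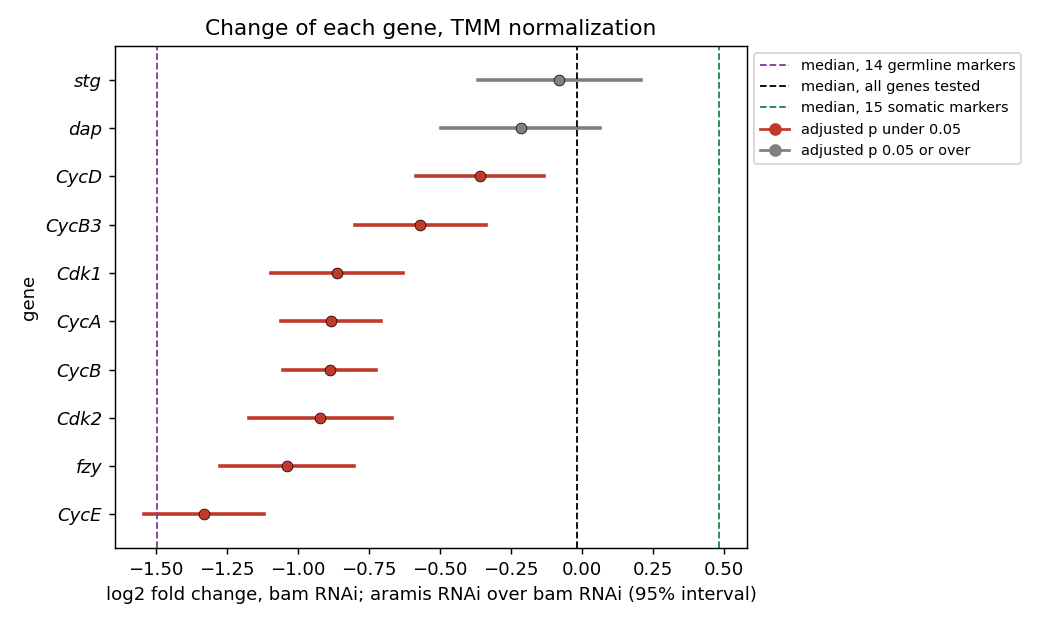
Log2 fold change of the 10 genes in bam RNAi; aramis RNAi over bam RNAi ovaries (x axis) with 95% intervals of the edgeR fit, ordered from the smallest to the largest fall (y axis). *CycE* at -1.33 lies nearest to the median of the germline markers at -1.49, while the intervals of *stg* and *dap* include 0; scaled on germline markers, all 10 values are above 0.

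Among the mitotic regulators, *CycB* had the highest mean level of the 10 genes in both genotypes, within the spread of *Cdk1*. The gene (FBgn0000405, 2R, minus strand, 22803521 to 22806948) has 3047 bases of exon, and positions here and below are those of the BDGP6 (dm6) assembly. *CycB* had 90.5 and 84.0 TPM in *bam* RNAi; *aramis* RNAi, against 180 and 171 TPM in *bam* RNAi, from 1311 and 1318 counts against 2772 and 3051. Both libraries with *aramis* RNAi were thus far below both without it. The log2 fold change was -0.89 (SE 0.0684, adjusted p = 2.9e-04). *CycA* (FBgn0000404, 3L, minus strand, 11826719 to 11833578) had 79.2 and 68.7 TPM with *aramis* RNAi, against 151 and 146 TPM in *bam* RNAi. Its change, -0.88 on the log2 scale (SE 0.0736, adjusted p = 3.4e-04), differed from that of *CycB* by less than their errors, and again the genotypes did not overlap. These cyclins overlap in function in mitosis, and *CycA* is the one of the mitotic cyclins that the fly cannot do without.

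*Cdk1*, the mitotic kinase itself, is a short gene with 1082 bases of exon and 1 annotated transcript (FBgn0004106, 2L, minus strand, 10384739 to 10386262). It had 90.6 and 79.4 TPM in *bam* RNAi; *aramis* RNAi, against 165 and 171 TPM in *bam* RNAi. The genotypes did not overlap, and the log2 fold change was -0.86 (SE 0.0970, adjusted p = 7.4e-04). The 3 mRNAs of *CycA*, *CycB* and *Cdk1* therefore fell by like amounts, and their 95% intervals overlapped almost fully, from -1.06 to -0.71 for *CycA*, from -1.05 to -0.72 for *CycB* and from -1.10 to -0.63 for *Cdk1*.

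*fzy*, the fly Cdc20, which activates the APC/C in mitosis, fell further by its value. The gene (FBgn0001086, 2L, plus strand, 16310956 to 16313097) had 59.8 and 51.5 TPM with *aramis* RNAi, against 135 and 114 TPM in *bam* RNAi. Its log2 fold change was -1.04 (SE 0.0983, adjusted p = 4.6e-04), with an interval of -1.27 to -0.80 that overlaps those of *CycA* and *CycB*. Of its exons 62 bases overlap *cact* on the other strand, and *cact* was at 0.32 (adjusted p = 0.0082), a call lost without *bam* RNAi replicate 1 or 2 (0.0701 and 0.0824).

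*CycB3*, a mitotic cyclin that promotes anaphase, fell less than its relatives by its value. This single-exon gene (FBgn0015625, 3R, minus strand, 24867934 to 24870816) had 33.1 and 30.1 TPM in *bam* RNAi; *aramis* RNAi, against 54.5 and 47.7 TPM in *bam* RNAi. The log2 fold change was -0.57 (SE 0.0959, adjusted p = 0.0033), with an interval of -0.80 to -0.34. Without *bam* RNAi replicate 1, in which *CycB3* was higher than in replicate 2, it was at -0.51 with an adjusted p of 0.0565.

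*stg* encodes the Cdc25 phosphatase that removes the inhibitory phosphates from Cdk1 and so sets the time of mitosis in many fly cells. The gene (FBgn0003525, 3R, minus strand, 29251826 to 29255800) had 50.1 and 52.3 TPM in *bam* RNAi; *aramis* RNAi, against 66.3 and 52.2 TPM in *bam* RNAi. The genotypes overlapped in TPM, since *bam* RNAi replicate 2 lay between the libraries with *aramis* RNAi, although they did not in CPM (61.4 and 66.3 against 84.9 and 70.1). No change was detectable (log2 fold change -0.08, SE 0.120, adjusted p = 0.605), and the 95% interval of -0.37 to 0.21 does not reach the changes of *CycA*, *CycB* or *Cdk1*. The sign of this value turned to 0.057 without *bam* RNAi replicate 1 and to 0.016 without *aramis* RNAi replicate 1.

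**Figure D2:**
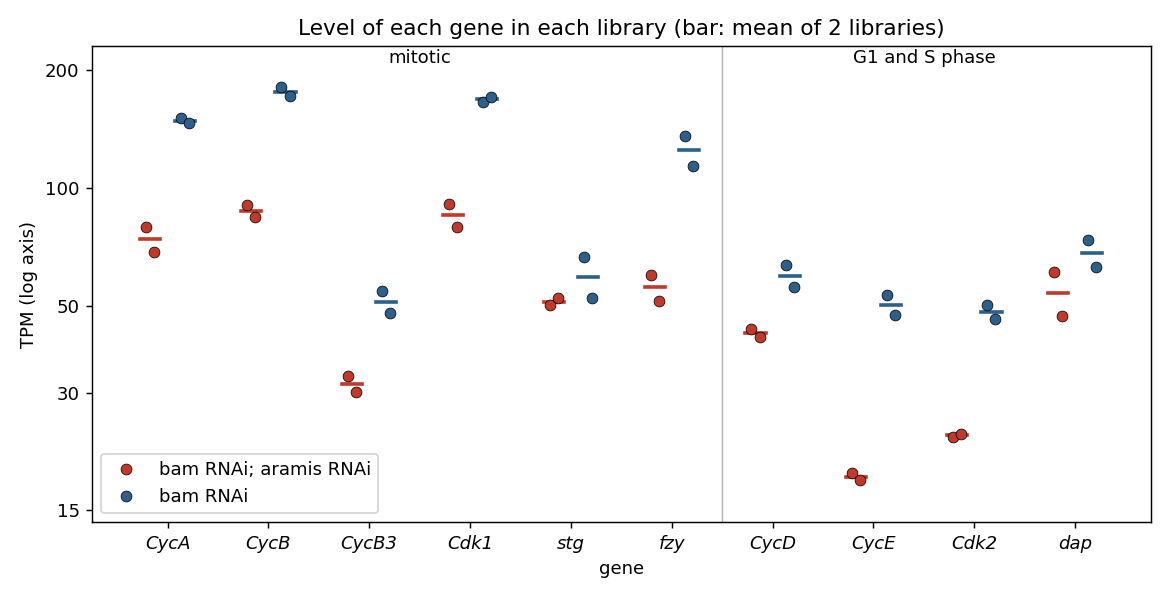
TPM (y axis, log scale) of each of the 10 genes (x axis) in each library, with bam RNAi; aramis RNAi left of bam RNAi for each gene and bars at the means of 2 libraries. *CycB*, *Cdk1*, *CycA* and *fzy* lie at 51.5 to 90.6 TPM in bam RNAi; aramis RNAi and at 114 to 180 TPM in bam RNAi, while the points of *stg* overlap between the genotypes.

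Among the G1 and S phase genes, *CycE* showed the largest change of all 10. Cyclin E is the partner of Cdk2 and its level limits entry into S phase. The gene (FBgn0010382, 2L, minus strand, 15727581 to 15748150) has 6 annotated transcripts and 5047 bases of exon, of which 248 overlap annotated antisense and long noncoding RNAs with at most 27 counts in any library. It had 18.7 and 17.9 TPM in *bam* RNAi; *aramis* RNAi, against 53.2 and 47.2 TPM in *bam* RNAi, from 448 and 465 counts against 1354 and 1394. The libraries of each genotype lay close together and the genotypes far apart, with a log2 fold change of -1.33 (SE 0.0883, adjusted p = 2.5e-04). Its 95% interval of -1.54 to -1.12 lies below those of *CycA*, *CycB*, *Cdk1*, *CycB3*, *CycD*, *dap* and *stg*, and overlaps those of *fzy* and *Cdk2*. Of all genes tested, 5.10% had a lower log2 fold change.

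*Cdk2*, the kinase partner of Cyclin E, had 23.1 and 23.6 TPM with *aramis* RNAi, against 50.3 and 46.3 TPM in *bam* RNAi. The log2 fold change was -0.92 (SE 0.105, adjusted p = 7.8e-04), close to that of *Cdk1*. The level of *Cdk2* (FBgn0004107, 3R, plus strand, 20735623 to 20738414) is uncertain, because 1010 of its 2299 exon bases overlap *CG17267* on the other strand and the sources used here do not say whether the counting used strand. *CG17267* itself had at most 1 count in any library.

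*CycD*, whose product acts with Cdk4 in G1 and in growth, fell least among the genes called. The gene (FBgn0010315, X, minus strand, 15906822 to 15909676) had 43.7 and 41.5 TPM in *bam* RNAi; *aramis* RNAi, against 63.3 and 55.9 TPM in *bam* RNAi, with a log2 fold change of -0.36 (SE 0.0943, adjusted p = 0.0187). The genotypes did not overlap, but the call did not hold throughout. DESeq2 gave -0.34 with an adjusted p of 0.0737, and leaving out *bam* RNAi replicate 1, *bam* RNAi replicate 2 or *aramis* RNAi replicate 1 gave adjusted p-values of 0.107, 0.0722 and 0.0715 in edgeR. Its partner *Cdk4* was at -0.26 (adjusted p = 0.0621) and was not called.

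*dap* encodes the fly inhibitor of Cyclin E and Cdk2, a relative of the mammalian p21 and p27 proteins. The gene (FBgn0010316, 2R, plus strand, 9712321 to 9716256) had 60.8 and 47.1 TPM in *bam* RNAi; *aramis* RNAi, against 73.5 and 62.7 TPM in *bam* RNAi. The libraries of a genotype differed among themselves nearly as much as the genotypes did, although the genotypes did not overlap. No change was detectable (log2 fold change -0.22, SE 0.117, adjusted p = 0.165). The interval of -0.50 to 0.06 does not reach that of *CycE*, the cyclin of the complex it inhibits.

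By level, 4 of the 10 genes stood above the other 6 in *bam* RNAi ovaries. *CycB* (176 ± 6.49 TPM), *Cdk1* (168 ± 4.04), *CycA* (148 ± 3.41) and *fzy* (124 ± 15.1 TPM, SD, n = 2) lay above 91.7% to 94.6% of the 16647 genes with a known length. *CycB* and *Cdk1* differed by less than the sum of their SDs, and the steps from *Cdk1* to *CycA*, from *CycA* to *fzy* and from *fzy* to *dap* were larger than that. The lower 6 followed from 68.1 ± 7.68 TPM for *dap*, through *CycD*, *stg*, *CycB3* and *CycE*, to 48.3 ± 2.84 TPM for *Cdk2*, and no neighbours in this order differed by more than the sum of their SDs. In *bam* RNAi; *aramis* RNAi ovaries *CycB* (87.3 ± 4.58 TPM), *Cdk1* (85.0 ± 7.95) and *CycA* (73.9 ± 7.44 TPM, SD, n = 2) were again the highest 3, with steps between them no larger than the sum of their SDs, and *fzy* (55.6 ± 5.85 TPM) was within the spread of *dap* and *dap* within that of *stg*. There *Cdk2* (23.4 ± 0.301 TPM) and *CycE* (18.3 ± 0.548 TPM) stood apart at the bottom. *CycE* thus held the last place with *aramis* RNAi, at percentile 64.0 of all genes, and the place before the last in *bam* RNAi, at percentile 78.1. The TPM of *CycE* depends on the length used, since the length of the longest transcript gives 22.1 TPM with *aramis* RNAi and 61.0 TPM in *bam* RNAi. By that length *CycE* was above *CycD* (56.6 TPM), *CycB3* (48.6 TPM) and *Cdk2* (47.4 TPM) in *bam* RNAi, and its gap to *Cdk2* (22.8 TPM) with *aramis* RNAi was within their SDs, so that its place among the lower genes is not settled.

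Ratios between genes of 1 library do not depend on how libraries are scaled to each other. With 2 libraries per genotype an exact two-sided permutation test cannot go below p = 0.333, so these ratios are given without a test. Of all genes tested, 79.7% did not overlap in CPM in either direction, and no such share was found for ratios of other pairs. Whether a ratio overlaps is therefore a description only. The ratio of *CycB* to *CycA* TPM was 1.14 and 1.22 with *aramis* RNAi, against 1.20 and 1.17 in *bam* RNAi. Those of *CycB* to *Cdk1* (0.999 and 1.06 against 1.09 and 1.00) and of *Cdk1* to *Cdk2* (3.91 and 3.37 against 3.28 and 3.69) overlapped between the genotypes as well. The mRNAs of these mitotic genes and of *Cdk2* were thus present in like proportions in both genotypes. The ratio of *CycE* to *CycD* was 0.428 and 0.431 with *aramis* RNAi, against 0.840 and 0.845 in *bam* RNAi. The ratio of *CycE* to its inhibitor's mRNA *dap* was 0.307 and 0.380, against 0.724 and 0.754, and that to *Cdk2* was 0.807 and 0.759, against 1.06 and 1.02. For these 3 ratios *CycE* was lower in both libraries with *aramis* RNAi, and the genotypes did not overlap. Those of *CycB3* to *CycA* (0.418 and 0.439 against 0.361 and 0.327) and of *stg* to *CycB* (0.554 and 0.622 against 0.368 and 0.305) were higher with *aramis* RNAi and did not overlap either. In contrast, the ratio of *CycE* to *PCNA*, the sliding clamp of DNA replication, was 0.121 and 0.108 with *aramis* RNAi, against 0.117 and 0.111 in *bam* RNAi, and overlapped. That of *Cdk2* to *PCNA* did not overlap and was higher with *aramis* RNAi (0.149 and 0.142 against 0.111 and 0.109). The ratio of *CycD* to *Cdk4* did not overlap either and was lower (1.10 and 1.13 against 1.20 and 1.20).

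**Figure D3:**
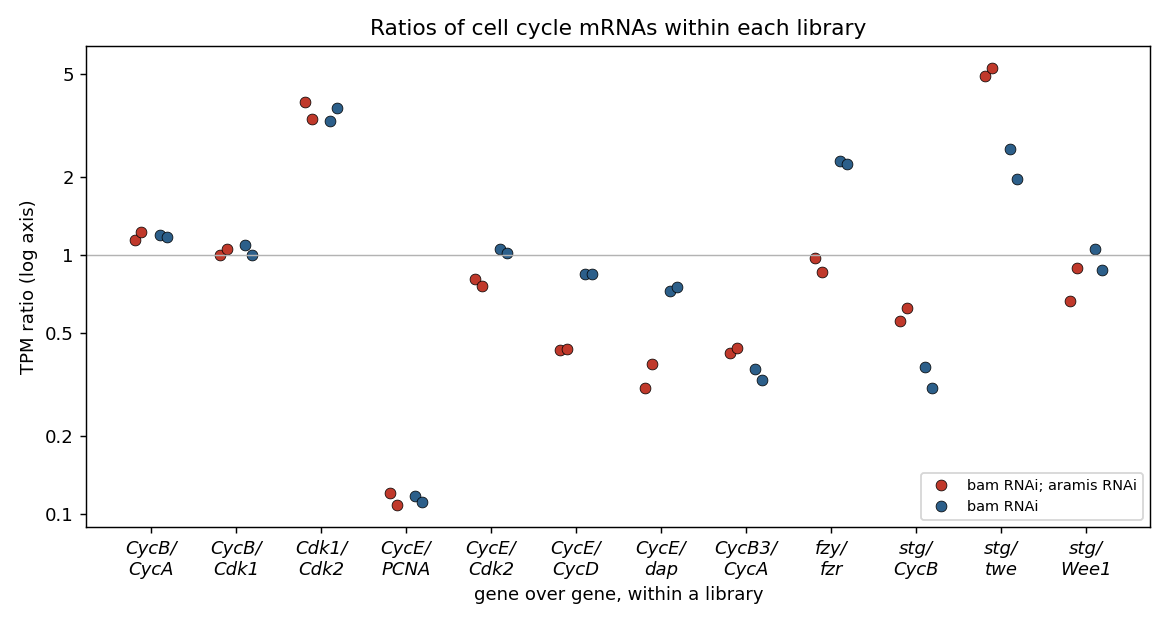
Ratio of the TPM of the first gene to that of the second within each library (y axis, log scale), with bam RNAi; aramis RNAi left of bam RNAi for each pair (x axis). The ratios of *CycB* to *CycA*, *CycB* to *Cdk1*, *Cdk1* to *Cdk2*, *CycE* to *PCNA* and *stg* to *Wee1* overlap between the genotypes. The other 7 do not, and neither do 79.7% of all genes tested in CPM.

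*twine* (*twe*), the other fly Cdc25 and a phosphatase of the germline and meiosis, fell with a log2 fold change of -1.27 (SE 0.131, adjusted p = 5.8e-04). The ratio of *stg* to *twe* was therefore 4.93 and 5.29 with *aramis* RNAi, against 2.57 and 1.96 in *bam* RNAi. That of *stg* to *Wee1*, a kinase that opposes it on Cdk1, was 0.664 and 0.888 with *aramis* RNAi, against 1.06 and 0.874 in *bam* RNAi, and overlapped. *fizzy-related* (*fzr*), the fly Cdh1, which activates the APC/C in G1 and in endocycles, was higher with *aramis* RNAi, with 61.5 and 60.2 TPM against 58.4 and 50.6 TPM (log2 fold change 0.29, SE 0.0922, adjusted p = 0.0396). *fzy* was 0.971 and 0.856 times as abundant as *fzr* with *aramis* RNAi, against 2.31 and 2.25 times in *bam* RNAi. The rise of *fzr* was not called by DESeq2 (adjusted p = 0.0850), without the filter on low counts (0.0558) with the replicate number as a block (0.0593) or without any one library (0.0586 to 0.187), whereas the fall of *fzy* was.

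The wider cell cycle machinery was described with 6 lists, of 81 genes in all. Like the 10 genes above, these lists were chosen with earlier results of these data known. Their counts beside those of all genes are therefore a description only. Of the 78 genes tested, 50 were lower, 5 were higher and 23 did not pass the test, with a median log2 fold change of -0.49 against -0.02 for all genes. Of all genes tested 25.0% were lower and 25.4% higher, which is the background for each list below in the fit with all libraries. With DESeq2 (17.3% lower) or without 1 library, fewer of all genes were called lower. The list counts from those fits are therefore not to be set against the 25.0%. As for the 10 genes above, the values turned positive for nearly all when the libraries were scaled on germline markers. Under that scaling 1 of the 78 genes, *CycJ*, had a negative value.

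Of 13 further regulators of Cdk1, 9 were lower, 1 was higher and 3 did not pass the test (median -0.50). *twe* and *Cks85A*, a small Cdk-binding subunit, fell most. *Cks85A* was at -0.98 (SE 0.173, adjusted p = 0.0041), but 2264 of its 3024 exon bases overlap genes on the other strand. *greatwall* (*gwl*), a kinase that restrains the phosphatase opposing Cdk1, was at -0.83 (adjusted p = 0.0015). The inhibitory kinase *Myt1* rose, with 36.8 and 31.0 TPM with *aramis* RNAi against 26.3 and 24.6 TPM in *bam* RNAi (log2 fold change 0.53, SE 0.113, adjusted p = 0.0081). Without *bam* RNAi replicate 1 or 2, fewer of this list were called lower, as of all genes. Neither *Myt1* (log2 fold change 0.54 and 0.52) nor *Cks85A* (-0.96 and -0.995) was called in those fits.

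Of 14 genes of the APC/C, 13 were tested, and 8 were lower, 1 (*fzr*) was higher and 4 did not pass the test (median -0.49). The subunit genes *ida* and *Cdc16* fell most, to -0.81 (adjusted p = 0.0017) and -0.77 (adjusted p = 9.8e-04). *lmgA* had 0 counts in every library, and all of its exon bases lie within those of *lmgB* on the same strand. In this list 5 genes were lower with DESeq2, against 17.3% of all genes. Without either one of the *bam* RNAi libraries or *aramis* RNAi replicate 2, fewer of the list were called lower, as of all genes. *ida* was not called without *bam* RNAi replicate 1 or 2 (log2 fold change -0.80 and -0.82). Of 9 spindle checkpoint genes 7 were lower and 2 did not pass the test (median -0.52), with *mad2*, which holds back Fizzy until chromosomes are attached, at -0.99 (adjusted p = 9.0e-04) and the kinase gene *Mps1* at -0.75 (adjusted p = 0.0059). When one or the other *bam* RNAi library was left out, fewer of these 9 were called lower, as of all genes. *Mps1* was at -0.83 and -0.67 without *bam* RNAi replicate 1 and 2, and was not called.

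Of 18 genes of G1/S control and DNA replication, 17 were tested, 12 were lower and 5 did not pass the test (median -0.53). *RnrL*, the large subunit of ribonucleotide reductase, fell to 70.3 and 67.2 TPM with *aramis* RNAi, against 207 and 189 TPM in *bam* RNAi (log2 fold change -1.40, SE 0.0724, adjusted p = 2.2e-04). *PCNA* was at -1.33 (SE 0.0913, adjusted p = 2.6e-04). The retinoblastoma homologue *Rbf*, a repressor of E2F targets, was at -0.55 (adjusted p = 0.0032) and *Myc*, of whose 9170 exon bases 3754 overlap a gene on the other strand, at -0.28 (adjusted p = 0.0340). *Myc* was not called by DESeq2 (0.0641), without the filter on low counts (0.0522) or without *bam* RNAi replicate 1 or 2 or *aramis* RNAi replicate 2 (0.198, 0.166 and 0.146). Without *bam* RNAi replicate 1, fewer genes of this list were called lower, as of all genes, and *Rbf* was at -0.45 and not called.

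Of 10 genes of the DNA damage checkpoint, 9 were tested, 7 were lower and 2 did not pass the test (median -0.67). *Claspin*, a mediator of Chk1 activation, and *lok*, the fly Chk2, fell most, to -1.38 (SE 0.103, adjusted p = 2.7e-04) and -1.32 (SE 0.0969, adjusted p = 2.6e-04), values close to that of *CycE*. *tefu*, the fly ATM kinase gene, was at -0.99 (adjusted p = 3.1e-04). *Rad1* had 0 counts in every library, and its exons lie wholly within those of *Sws1* on the same strand. When one or the other *bam* RNAi library was left out, fewer of the list were called lower, as of all genes.

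**Figure D4:**
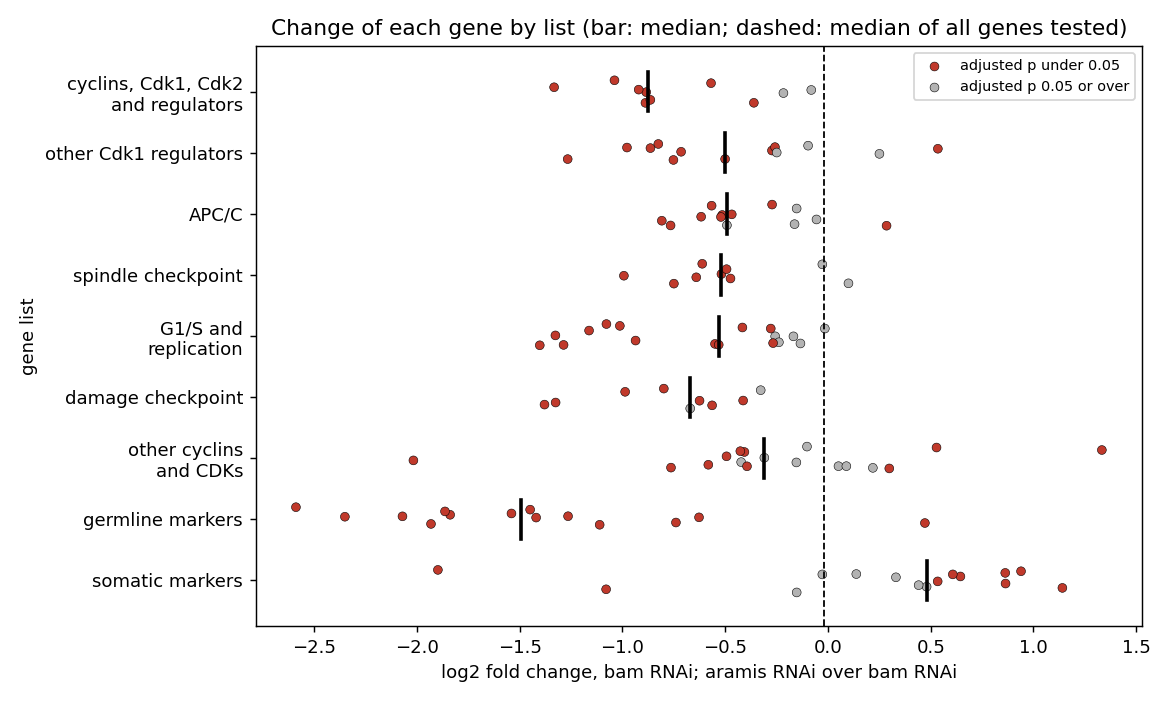
Log2 fold change in bam RNAi; aramis RNAi over bam RNAi (x axis) of each tested gene in 7 cell cycle lists and in the germline and somatic marker lists (y axis), with list medians as bars. The 10 cyclins, kinases and regulators have a median of -0.87, between that of the germline markers at -1.49 and those of the other cell cycle lists, which lie at -0.67 or above, under TMM normalization (the medians of all 7 cell cycle lists are positive under the scaling on germline markers).

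For each of the 10 genes, the gene of the 6 lists with the most similar pattern was found by the Euclidean distance of the log2 CPM values of the 4 libraries, centred on their mean. This measure is a description, since 4 libraries of 2 genotypes hold few independent values. *CycE* was closest to *RnrL* (distance 0.0822) and then to *PCNA* (0.126). *Cdk2* was closest to *Cks85A* (0.0370), *CycD* to *Mat1*, a subunit of the Cdk-activating kinase (0.0490), and *CycB3* to *Rbf* (0.0694). *CycA* and *fzy* shared *tefu* as the closest gene (0.108 and 0.133), *Cdk1* was closest to *gwl* (0.104) and *CycB* to *Cks85A* (0.132). The genes without a detectable change were closest to *CycK*, a cyclin of transcription (0.119, for *stg*), and to *Myc* (0.111, for *dap*).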

How the data were processed

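The authors deposited, for each of 4 libraries, raw read counts per gene under FlyBase identifiers, with no normalization. The submitters' processing notes name dm6, HISAT2 2.1.0, featureCounts 1.4.6 and DESeq2 1.24.0. The annotation release, the strand setting and the treatment of multiply mapped reads are not given in the sources used here. RNA was fragmented for 13 min and libraries were made with a directional kit. The labels gave each library's genotype and replicate number.

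Symbols, positions and exon lengths came from Ensembl release 115 (BDGP6), which matched 16647 of 17023 identifiers. The other 376 held 6.14% to 6.32% of counts and were left out of TPM only. *Orc1*, *wupA* and *FASN1* had no matching row and were not analysed here.

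Genotypes were compared with edgeR 4.0.16 in R 4.3.3 (TMM, minimum count 10, quasi-likelihood test, no block). Standard errors and 95% intervals are those implied by the F statistic. Functions were tested on simulated data. Alternatives were DESeq2 1.42.0, RLE, no filter (at least 1 count), a replicate block, leaving out the 20 most abundant genes or each library, scaling on germline markers and the longest transcript as length. Python 3.11.15 was used for tables.

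The members and lists were chosen with earlier results of these data known. Named are the 10 genes, from each list the 2 largest rises and 2 largest falls among called genes whose libraries do not overlap in CPM, the closest gene of each member, and the targeted gene *aramis*. *Cdk4*, *CycG*, *CycY* and genes with 0 counts were named after their values were seen.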

Additional observations from a re-analysis of the deposited data

How the results depend on the processing

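RLE, no filter on low counts and leaving out the 20 most abundant genes changed no call among the 10 genes. Scaling on germline markers reversed all 10: 0.57 for *CycA*, 0.56 for *CycB*, 0.88 for *CycB3*, 1.09 for *CycD*, 0.12 for *CycE*, 1.37 for *stg*, 0.59 for *Cdk1*, 0.53 for *Cdk2*, 1.23 for *dap* and 0.41 for *fzy*. It also reversed these other named genes: *ais* (0.079), *Cdk4* (1.19), *twe* (0.19), *Cks85A* (0.47), *ida* (0.64), *Cdc16* (0.68), *mad2* (0.46), *Mps1* (0.70), *RnrL* (0.049), *PCNA* (0.13), *Claspin* (0.074), *lok* (0.12), *Cdk7* (0.69), *tefu* (0.46), *Rbf* (0.90), *Mat1* (1.06), *CycK* (1.35), *gwl* (0.63) and *Myc* (1.17). By construction this scaling moves nearly all genes together. It called 8212 genes, 8073 higher and 139 lower. In edgeR it called 0 lower among the 10 genes, the Cdk1 regulators, the APC/C, the spindle checkpoint, G1/S and damage checkpoint lists, with 0 also at an unadjusted p under 0.05, and 1 among other cyclins and CDKs. DESeq2 was not run with it.

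DESeq2 called 5 APC/C genes and 4 other cyclins and CDKs lower, against 17.3% of all genes, and *CycD* was at -0.34 (adjusted p = 0.0737). The cause was not tested. A replicate block left 4430 genes called, against 4590 without it, 4312 of them shared in the same direction, and again 8 of the 10 genes lower. Deviations of same-numbered libraries correlated at 0.039, so that no shared deviation was seen. This value cannot show whether same-numbered libraries were prepared together.

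Leaving out each library leaves 1 library in a genotype, assumed to vary like the other. The values ran from -0.63 to -0.51 for *CycB3*, -0.41 to -0.31 for *CycD* and -0.21 to 0.057 for *stg*. Genes called ran from 1243 to 3715, with 685 to 1991 higher and 558 to 1724 lower. Genes called lower ran from 4 to 7 for the Cdk1 regulators, 1 to 6 for the APC/C, 3 to 7 for the spindle checkpoint, 6 to 10 for G1/S, 3 to 6 for the damage checkpoint and 1 to 5 for other cyclins and CDKs. The fewer residual degrees of freedom are part of the construction of these fits.

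With the longest transcript as length, TPM moved by more than 1 SD in *bam* RNAi for *CycA* (141), *CycB* (193), *CycE* (61.0) and *Cdk1* (160), and in *bam* RNAi; *aramis* RNAi for *CycB* (95.3), *CycD* (40.2), *CycE* (22.1), *stg* (53.9) and *Cdk2* (22.8).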

Other observations

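Of 17 other cyclins, kinases and partners, 7 were lower, 3 were higher and 7 did not pass edgeR's test. Their median log2 fold change was -0.31 under TMM normalization. Of all genes tested, 25.0% were lower and 25.4% higher. DESeq2 called 4 of the 17 lower, against 17.3% of all genes. Without either one of the *bam* RNAi libraries edgeR called fewer of the 17 lower, as it did of all genes. *CycJ*, a cyclin of the female germline, fell most, to 13.5 and 10.5 TPM in *bam* RNAi; *aramis* RNAi, against 51.9 and 53.6 TPM in *bam* RNAi (log2 fold change -2.02, standard error 0.144, adjusted p = 2.6e-04). It was the only gene of all cell cycle lists that changed over 4-fold, and the only one that stayed lower when the libraries were scaled on germline markers. The 4-fold mark was passed narrowly. *CycJ* was just short of it with DESeq2 (-1.998) and RLE (-1.996), and ran from -2.14 to -1.89 when 1 library was left out. *Cdk7*, the catalytic subunit of the Cdk-activating kinase, was at -0.76 (adjusted p = 0.0023) and its partner *Mat1* at -0.39 (adjusted p = 0.0213). *Cdk7* was not called without *bam* RNAi replicate 1 or 2 (0.0682 and 0.0693), and *Mat1* was not called by DESeq2 (0.108) or without any one library (0.0561 to 0.125). *Eip63E*, a kinase that acts with Cyclin Y, rose to 34.0 and 30.9 TPM, against 26.4 and 22.7 TPM (log2 fold change 0.53, adjusted p = 0.0032), and *CycY* itself was at 0.30 (adjusted p = 0.0173). *Eip63E* was not called without *bam* RNAi replicate 2 (0.0578), nor *CycY* without *bam* RNAi replicate 1 or 2 or *aramis* RNAi replicate 2 (0.117, 0.131 and 0.0706). *Cdk5alpha*, the activator of Cdk5, was the highest at 1.33 (adjusted p = 0.0355), from 28 and 40 counts with *aramis* RNAi against 18 and 14 counts, and was not called by DESeq2 (adjusted p = 0.104), with a replicate block (0.0569) or without any one library (0.0622 to 0.190). *CycG*, the most abundant of this list, had 419 and 406 TPM against 399 and 374 TPM and was not called by edgeR (0.22, adjusted p = 0.103), but was by DESeq2 (0.24, adjusted p = 0.0232).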
